A study of Mus musculus with 18 samples.

Results

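Amino acids enter cells through carrier proteins of the plasma membrane. The 10 genes described here, taken by their symbols from 23416 genes listed in the tables, encode such carriers or their partner: Slc7a3 and Slc7a1 (cationic amino acids), Slc7a5, Slc43a1 and Slc3a2 (large neutral amino acids and the heavy chain that carries light chains to the membrane), Slc7a11 (cystine), Slc1a4 and Slc1a5 (small neutral amino acids and glutamine), Slc38a2 (sodium-coupled uptake of small neutral amino acids) and Slc6a9 (glycine). All 10 were present in each table and all 10 passed the filter on low values in each line. RNA-seq was run on whole lungs of mouse embryos of 14.5 dpc (days after mating), in 3 lines with 3 control and 3 deficient samples each, 18 samples in all. Control lungs were Rptorf/+; ShhCre/+, Tfamf/+; ShhCre/+ or Cox10f/+; ShhCre/+, and deficient lungs were Rptorf/f; ShhCre/+, Tfamf/f; ShhCre/+ or Cox10f/f; ShhCre/+, so that every animal carried Cre at the Shh locus and controls carried a floxed allele too. Cre made from the Shh locus acts in the lung epithelium, and the mesenchyme, vessels and blood cells of these lungs keep the floxed gene. The product of Rptor holds mTOR complex 1 (mTORC1) together and presents its substrates, that of Tfam packs mitochondrial DNA and starts its transcription, and that of Cox10 makes heme for cytochrome c oxidase of the respiratory chain.

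mTORC1 is switched on by amino acids, leucine and arginine among them, and it promotes protein synthesis and cell growth. When amino acids run short or mitochondria fail, cells can slow translation while the transcription factor Atf4 accumulates, and Atf4 is known to raise genes of amino acid synthesis and uptake. Several of the 10 transporters are known targets of that response, and mTORC1 activity is also known to raise Atf4 protein. Slc3a2 is the shared partner of Slc7a5 and of Slc7a11, and neither of these light chains reaches the cell surface well without it.

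The deposited values, reads scaled by a single factor per library, are called normalised read counts here. They summed to 27727202 to 29611064 per sample. In every line the normalised read counts of the targeted gene overlapped between the groups: Rptor was at 2197 to 2298 in controls and 1986 to 2442 in Rptor-deficient lungs, Tfam at 1057 to 1185 and 939.9 to 1107 in its line, and Cox10 at 753 to 824 and 743 to 829 in its line. The exons that Cre removes are not given in the sources used here. Cells outside the epithelium keep the gene, and their share of these lungs was not measured. Why the values overlapped was not tested. In the Rptor line, where 18.2% of the 14937 genes tested fell and 16.6% rose, 12 of 12 lung epithelial marker genes fell and their summed normalised read count was 30719 to 31610 in controls and 13159 to 17516 in deficient lungs, whereas 6 of 8 mesenchymal, 5 of 6 endothelial and 4 of 4 macrophage markers rose. None of the 5 erythroid and none of the 5 neuron and glia markers tested passed there by limma in either direction, also at an unadjusted p below 0.05. Of the 10 erythroid genes listed, 7 had values, and Hba-a1 and Hba-a2 were at 0 in every sample of this line. Hbb-y spread from 21154 to 51850 in deficient lungs. The deficient values of Slc4a1 all lay above its controls (log2 fold change 0.60, limma adjusted p = 0.112). Blood content was thus hardly tested. In the Tfam line, where 2.63% of the 15050 genes tested fell, 3 of the 12 epithelial markers did (summed 28917 to 30589 in controls and 24505 to 26899 in deficient lungs, median log2 fold change -0.082, 5 lower by p before adjustment). In the Cox10 line, where 0.335% of the 14934 genes tested fell, 1 did (summed 22797 to 23395 in controls and 16008, 17523 and 21679 in deficient replicates 1, 2 and 3, median -0.30, 8 lower by p before adjustment). Without Cox10-deficient replicate 3, where 1.23% of the genes tested fell, 7 of the 12 did, with a median of -0.45. None of the 12 was at 0. Separate short lists of distal and proximal epithelial genes were mixed in the Rptor line. Of 4 distal genes Sftpc and Etv5 fell and Id2 rose (0.35, limma adjusted p = 0.00184). Sox9 did not pass (-0.11, limma adjusted p = 0.495). Of 3 proximal genes Sox2 (-3.09) and Scgb3a2 (-4.71) fell and Foxj1 did not pass (-0.79, limma adjusted p = 0.0514). In bulk RNA, fewer cells of a type and less RNA per cell cannot be told apart. Rptor-deficient replicate 1 and Cox10-deficient replicate 3 stood apart from their own group: the chi-square per gene was 22.3 and 27.3 against the other Rptor-deficient samples, which differed from each other by 12.3, and 27.7 and 31.9 against the other Cox10-deficient samples, which differed by 8.36. Both samples were left out in turn for the members, the epithelial markers, the stress genes and the other transporters.

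Promoter sequence was searched for TGATGNAA, the letters of the element that Atf4 binds together with a C/EBP factor, on both strands (TTNCATCA is the reverse). RefSeq windows of 250 bases before and 50 bases after a transcript start (GRCm38.p6) were held for 7 of the 10 genes, and Slc7a3, Slc7a5 and Slc1a5 had no entry. These 7 genes had 10 windows (3 for Slc6a9, 2 for Slc7a1 and 1 for each of the others). A match stood in 2 of the 10 windows, those of Slc7a11 and Slc1a4, and in 3.97% of all 32851 windows of this length. Slc7a11 held TGATGCAA at -66 and TTGCATCA at -47, counted from the transcript start, and Slc1a4 held TTGCATCA at -4. The stretches from 110 bases before to 10 bases after the start are printed 5′ to 3′ on the minus strand, where these genes lie, with the matches in capitals. Slc7a1 and Slc3a2 are shown beside them as members that rose in Tfam-deficient lungs and hold no match in these windows.
Slc7a11, chr3:50443604-50443723: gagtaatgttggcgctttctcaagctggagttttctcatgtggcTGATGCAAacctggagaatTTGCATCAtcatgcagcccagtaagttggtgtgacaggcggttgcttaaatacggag
Slc1a4, chr11:20332704-20332823: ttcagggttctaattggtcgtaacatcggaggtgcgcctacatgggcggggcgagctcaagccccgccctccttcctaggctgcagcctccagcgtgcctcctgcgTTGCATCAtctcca
Slc7a1, chr5:148399895-148400014: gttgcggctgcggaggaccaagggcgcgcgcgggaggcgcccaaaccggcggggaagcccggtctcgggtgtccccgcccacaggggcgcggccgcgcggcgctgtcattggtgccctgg
Slc3a2, chr19:8713888-8714007: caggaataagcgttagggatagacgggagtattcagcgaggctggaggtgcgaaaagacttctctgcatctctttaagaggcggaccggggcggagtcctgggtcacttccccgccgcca

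A match is a description of letters and not a bound site. Of the genes with a match, Slc7a11 rose in Tfam-deficient lungs and Slc1a4 did not pass the test there. Of the 5 genes without a match in their windows, Slc7a1, Slc3a2 and Slc6a9 rose in Tfam-deficient lungs.

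Members that passed the test were counted in each line. In Rptor-deficient lungs 5 members fell (Slc7a1, Slc7a5, Slc1a4, Slc1a5 and Slc38a2) and 1 rose (Slc7a3), where 18.2% of the genes tested fell and 16.6% rose. In Tfam-deficient lungs 6 rose (Slc7a3, Slc7a1, Slc7a5, Slc3a2, Slc7a11 and Slc6a9) and none fell by limma, where 2.03% of the genes tested rose and 2.63% fell. The 702 genes called in that line in either direction became 357 without control replicate 1, 1113 without control replicate 3 and 441, 418 and 354 without deficient replicates 1, 2 and 3, while the 6 members passed in each fit without a sample. In Cox10-deficient lungs 1 rose (Slc7a3) and none fell by limma, where 0.141% of the genes tested rose and 0.335% fell. These Cox10 shares also rest on single samples: the 71 genes called in either direction became 3, 5 and 3 without control replicates 1, 2 and 3, 32 without deficient replicate 2 and 255 without deficient replicate 3. With p below 0.05 before adjustment, 1 member was higher and 5 lower in the Rptor line (22.3% and 23.4% of all genes tested), 6 were higher and 0 lower in the Tfam line (8.29% and 9.10%), and 2 were higher and 0 lower in the Cox10 line (6.40% and 6.62%). The 10 members had a median log2 fold change of -0.27 (Rptor), 0.48 (Tfam) and 0.084 (Cox10), beside 0.0082, 0.00095 and 0.0014 over all genes tested. Values of the 3 deficient samples all lay below the 3 controls for 5 members and above them for 1 in the Rptor line (26.0% and 24.3% of all genes tested), above for 7 and below for 0 in the Tfam line (10.9% and 11.8%), and above for 3 and below for 1 in the Cox10 line (10.6% and 10.8%).

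**Figure D1:**
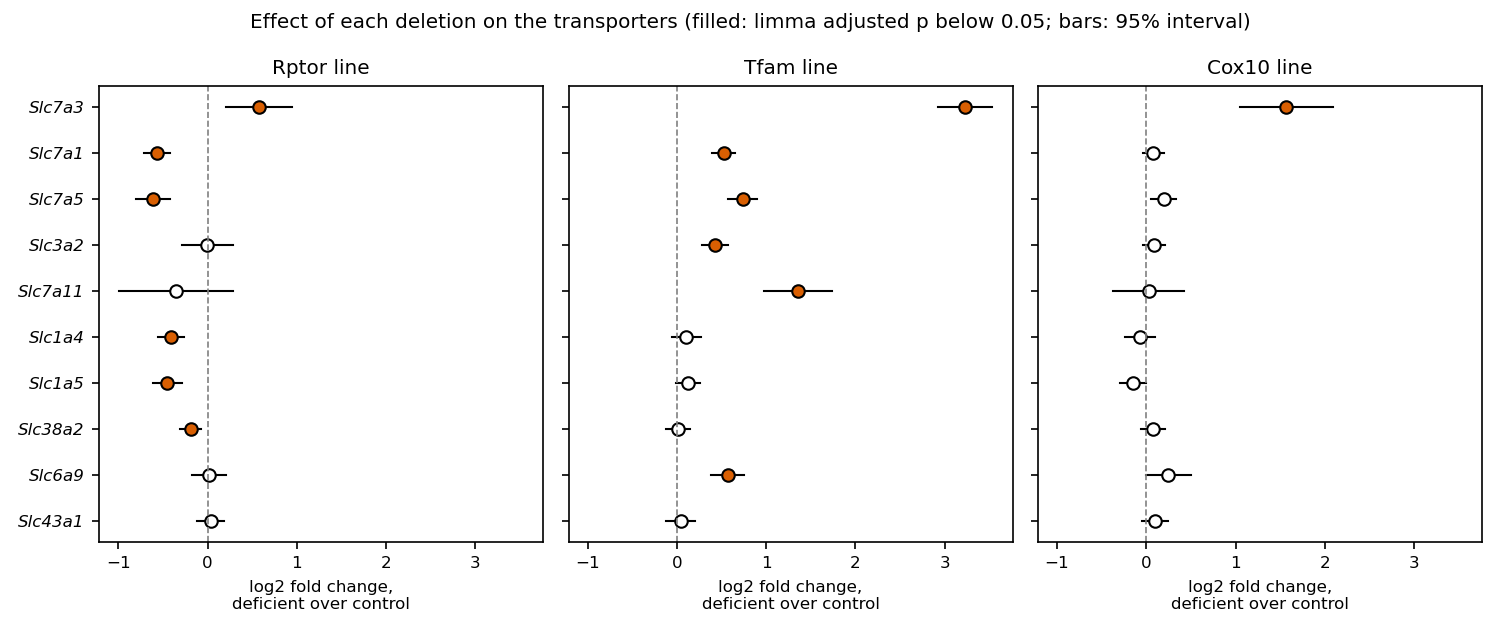
Log2 fold change of deficient over control lungs on the log2(value + 1) scale (x axis) for each of the 10 transporters (y axis), with a panel for each line, bars for the 95% interval from limma, and filled points for an adjusted p below 0.05. Filled points lie left of 0 for 5 genes in the Rptor line and right of 0 for 6 genes in the Tfam line, and Slc7a3 is filled in all 3 panels with 0.58, 3.23 and 1.57.

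Slc7a3 (ENSMUSG00000031297.14, chrX:101079210-101086020, minus strand, GRCm38) encodes a transporter of arginine, lysine and ornithine. Within the Tfam line its normalised read counts were 36.6, 48.5 and 37.0 in controls and 384, 377 and 399 in deficient lungs. The lowest deficient value was far above the highest control, and the means were 40.7 ± 6.77 and 387 ± 11.04 (SD, n = 3). The log2 fold change was 3.23 ± 0.14 (SE), a 9.37-fold rise on the log2(value + 1) scale, with a limma adjusted p of 5.79e-07, and ranked 6 among the rises of all genes tested in the line. In the Cox10 line the control values were 58.6, 48.4 and 57.0 and the deficient values were 119.8, 169.9 and 215. The groups did not overlap and the deficient samples spread more than the controls (54.6 ± 5.45 and 168 ± 47.9). The log2 fold change was 1.57 ± 0.22 (limma adjusted p = 0.0365) and also ranked 6 in its line. This call was lost in 4 of the 6 fits that left out a sample, those without Cox10 control replicate 1, 2 or 3 or Cox10-deficient replicate 2, with adjusted p of 0.179, 0.164, 0.228 and 0.107, while the log2 fold change stayed between 1.37 and 1.79. The call was also lost with the replicate number as a block (limma adjusted p = 0.0566).

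Within the Rptor line Slc7a3 rose least. Control values were 45.9, 47.0 and 51.7 and deficient values 74.4, 69.3 and 73.1, so the groups did not overlap. The log2 fold change was 0.58 ± 0.16 (limma adjusted p = 0.0258), and ranked 1470 among the rises of that line. Leaving out any 1 of the 6 samples lost the call (adjusted p 0.0502 to 0.0723), where the log2 fold change was 0.54 to 0.63. The effect of the Rptor line minus that of the Tfam line was -2.65 ± 0.25 (limma adjusted p = 4.75e-06) and minus that of the Cox10 line -0.99 ± 0.25 (adjusted p = 0.0208), and the rise in the Tfam line exceeded that in the Cox10 line by 1.66 ± 0.25 (adjusted p = 0.0111). Without Tfam control replicate 1 or Tfam-deficient replicate 3 the last of these had an adjusted p of 0.0503 and 0.0535, and with the replicate number as a block 0.0668. Slc7a3 lies on the X chromosome and the sex of the embryos is not labelled. Only cells with an inactive X transcribe Xist. It was at 13.1 to 72.4 in Rptor control 2, Rptor-deficient 1 and 2, Cox10 control 2 and Cox10-deficient 3. In the other samples it was at 5265 (Tfam control 2) to 43497 (Tfam control 1), with 10224 in Tfam-deficient 1. Cox10-deficient replicate 3 also had the highest Slc7a3 value of its line. With Xist as a covariate Slc7a3 stayed past the threshold in all 3 lines.

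Slc7a1 (ENSMUSG00000041313.14, chr5:148327410-148399904, minus strand) encodes the widely expressed cationic amino acid transporter. In the Rptor line it was at 1967, 2198 and 2112 in controls and at 1372, 1453 and 1414 in deficient lungs, and in the Tfam line at 2203, 2226 and 2037 in controls and at 3106, 3031 and 3161 in deficient lungs. Thus it moved in opposite directions in these lines with no overlap between groups in either. The log2 fold changes were -0.56 ± 0.06 (limma adjusted p = 0.000453) and 0.52 ± 0.06 (adjusted p = 0.000422), and they differed by -1.09 ± 0.08 (adjusted p = 1.43e-07). Within the Cox10 line it was at 1950.3, 1875 and 1979 in controls and 2023, 2122 and 1980.0 in deficient lungs. That difference was small and did not pass the test (0.08, 95% interval -0.04 to 0.19, adjusted p = 0.528). The Rptor effect minus the Cox10 effect was -0.64 ± 0.08 (adjusted p = 6.88e-05) and the Tfam effect minus the Cox10 effect 0.45 ± 0.08 (adjusted p = 0.0306), the latter lost in 10 of 12 fits without a sample (adjusted p up to 0.148, and 0.0583 without Cox10-deficient replicate 3) and with the replicate block (0.116).

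Because Slc7a3 and Slc7a1 move the same kind of substrate, their levels were set side by side per kb of exon. Slc7a3 was 6.56 ± 0.421% of the sum of the pair in Rptor controls and 13.5 ± 0.755% in Rptor-deficient lungs. It was 5.43 ± 0.722% and 27.5 ± 0.202% in the Tfam line, and 7.91 ± 0.560% and 19.9 ± 4.82% in the Cox10 line. In each line the share was higher in all 3 deficient samples than in all 3 controls. Slc7a1 was nonetheless the larger of the pair in every sample, since the highest share of Slc7a3 was 27.8%. Within the Rptor line the share moved with a fall of Slc7a1 as well as a rise of Slc7a3.

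**Figure D2:**
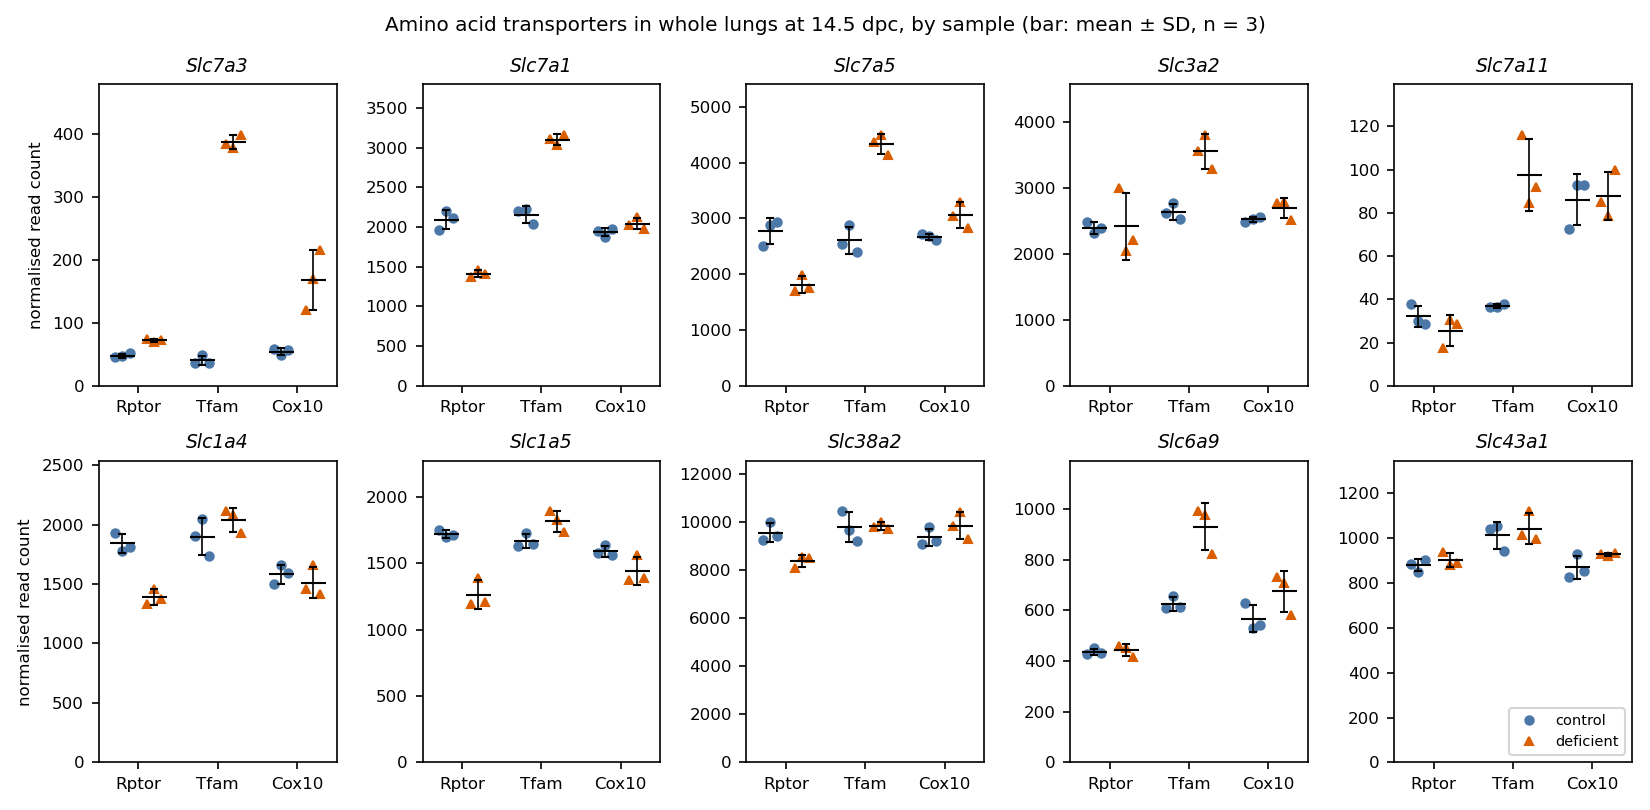
Normalised read counts (y axis, from 0) of the 10 transporters in each of the 18 samples, by line (x axis), with circles for control and triangles for deficient lungs and black bars for the mean ± SD (n = 3). Slc7a3 stands at 377 to 399 in Tfam-deficient lungs against 36.6 to 48.5 in their controls, and Slc7a11 is higher in the Cox10 controls (72.5 to 92.9) than in the controls of the other lines (28.8 to 38.0), whose tables were scaled separately.

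Slc7a5 (ENSMUSG00000040010.10, chr8:121881150-121907694, minus strand) encodes the light chain that exchanges leucine and other large neutral amino acids. Its normalised read counts were 2502, 2876 and 2936 in Rptor controls and 1707, 1983 and 1753 in Rptor-deficient lungs. They were 2549, 2875 and 2392 in Tfam controls and 4369, 4499 and 4135 in Tfam-deficient lungs. Like Slc7a1 it fell in the first line and rose in the second without overlap, with log2 fold changes of -0.61 ± 0.08 (limma adjusted p = 0.00106) and 0.74 ± 0.07 (adjusted p = 0.000205), a difference of -1.35 ± 0.11 (adjusted p = 1.13e-06). In the Cox10 line the controls were at 2714, 2682 and 2615 and the deficient lungs at 3047, 3299 and 2831. All 3 deficient values were the higher, yet the log2 fold change of 0.19 (95% interval 0.05 to 0.34) had an adjusted p of 0.286, and of 0.0493 without Cox10-deficient replicate 3. The Rptor effect minus the Cox10 effect was -0.80 ± 0.11 (adjusted p = 0.000327), and the Tfam and Cox10 effects differed by 0.54 ± 0.11 (adjusted p = 0.161). The gene Gm20388 overlaps Slc7a5 on the other strand, and whether the counting used strand is not given in the sources used here.

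Slc3a2 (ENSMUSG00000010095.13, chr19:8706882-8723369, minus strand) encodes the heavy chain. In the Tfam line it was at 2614, 2769 and 2529 in controls and 3565, 3808 and 3289 in deficient lungs, a log2 fold change of 0.43 ± 0.07 (limma adjusted p = 0.00391). In the Rptor line it was at 2486, 2312 and 2388 in controls and 2994, 2048 and 2215 in deficient lungs. Deficient replicate 1 lay above every control and the other two below every control, so that the mean change was near 0 (-0.0050, 95% interval -0.29 to 0.28, adjusted p = 0.979). Without replicate 1 the log2 fold change was -0.17 (adjusted p = 0.058), and the difference between the Rptor and Tfam effects went from -0.43 (adjusted p = 0.0527) to -0.60 (adjusted p = 0.000779). With all samples and the replicate block that difference had an adjusted p of 0.018. In the same sample Trib3, a gene raised by cell stress, was at 182, beside 49.5 and 46.4 in the other Rptor-deficient lungs and 57.7 to 62.8 in controls. Of the other listed stress genes Ddit3 was also highest in that sample (358, beside 282 and 272), whereas Atf4 (3162, beside 4172 and 4038), Asns (757, beside 870.5 and 819) and Sesn2 (301, beside 421 and 426) were lowest there and Chac1 was not raised (13.3, beside 12.9 and 18.8). Their part in the value of Slc3a2 was not tested. Within the Cox10 line the controls were at 2491, 2529 and 2564 and the deficient lungs at 2774, 2788 and 2518, which did not pass the test (0.090, 95% interval -0.03 to 0.21, adjusted p = 0.501).

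Per kb of exon, Slc7a5 over Slc3a2 was 1.10 ± 0.13 in Rptor controls and 0.739 ± 0.19 in Rptor-deficient lungs. It was 0.939 ± 0.045 and 1.16 ± 0.036 in the Tfam line, and 1.01 ± 0.033 and 1.08 ± 0.041 in the Cox10 line. The light chain was thus lower relative to the heavy chain in all 3 Rptor-deficient samples than in their controls, and higher in all 3 Tfam-deficient and all 3 Cox10-deficient samples than in theirs. The Cox10 groups nearly met, with a highest control of 1.037 and a lowest deficient value of 1.045. In the Tfam line these were 0.988 and 1.124. The Rptor-deficient ratios spread from 0.543 to 0.921, and replicate 1 was the lowest.

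**Figure D3:**
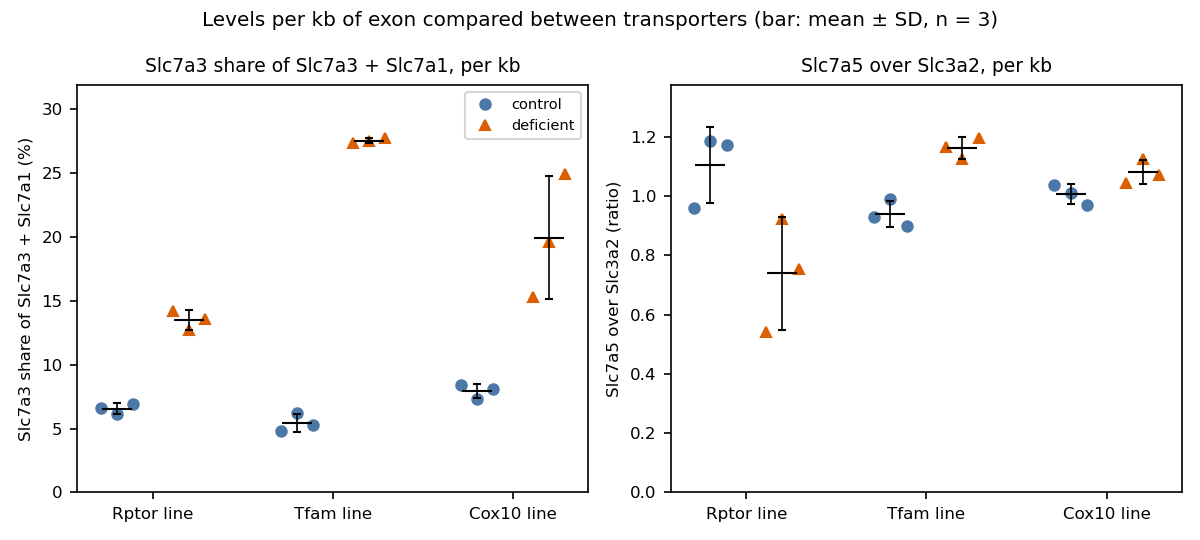
Share of Slc7a3 in the sum of Slc7a3 and Slc7a1 in percent (left) and ratio of Slc7a5 to Slc3a2 (right), both from normalised read counts per kb of exon, by line (x axis), with a point for each sample and bars for the mean ± SD (n = 3). The share is above its controls in all 3 deficient groups and highest in Tfam-deficient lungs (27.5%), and the ratio is below its controls in the Rptor line (0.739 against 1.10) and above them in the Tfam line (1.16 against 0.939).

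Slc7a11 (ENSMUSG00000027737.10, chr3:49892526-50443614, minus strand) encodes the light chain that takes up cystine in exchange for glutamate and so feeds glutathione synthesis. Within the Tfam line it was at 36.6, 36.4 and 38.0 in controls and 116, 84.4 and 91.9 in deficient lungs. The groups were well apart, with a log2 fold change of 1.36 ± 0.17 (limma adjusted p = 0.00107), a 2.57-fold rise. Within the Rptor line it was at 37.9, 29.97 and 28.8 in controls and 17.3, 30.7 and 28.7 in deficient lungs, which overlapped (-0.35, 95% interval -0.99 to 0.28, adjusted p = 0.354). The lowest value was that of deficient replicate 1, without which the log2 fold change was -0.11 (adjusted p = 0.773). In the Cox10 line the controls were at 72.5, 92.8 and 92.9 and the deficient lungs at 84.8, 78.4 and 99.8, and the log2 fold change was 0.029 (95% interval -0.37 to 0.43, adjusted p = 0.953). The Cox10 controls thus lay near the level of the Tfam-deficient lungs, but the tables were scaled separately and the lines were not tested against each other in level. The effects in the Rptor and Tfam lines differed by -1.71 ± 0.29 (adjusted p = 0.00145). The Tfam and Cox10 effects differed by 1.33 ± 0.29 without passing the threshold (adjusted p = 0.266). At these low values a change of a few reads moves the estimate, and processed pseudogenes and an antisense gene lie within the locus.

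Slc1a4 (ENSMUSG00000020142.12, chr11:20302180-20332713, minus strand) and Slc1a5 (ENSMUSG00000001918.17, chr7:16781340-16798274, plus strand) encode related exchangers of alanine, serine and cysteine, and Slc1a5 also carries glutamine. In the Rptor line Slc1a4 was at 1931, 1781 and 1811 in controls and 1332, 1462 and 1376 in deficient lungs. Slc1a5 was at 1752, 1696 and 1715 in controls and 1193, 1389 and 1209.5 in deficient lungs. Both fell without overlap, Slc1a4 with a log2 fold change of -0.41 ± 0.06 (limma adjusted p = 0.00199) and Slc1a5 with -0.45 ± 0.07 (adjusted p = 0.00224), and both kept the threshold in all 6 fits without a sample. In the Tfam line the log2 fold changes were 0.11 (95% interval -0.05 to 0.27, adjusted p = 0.485) for Slc1a4, with control values of 1738 to 2049 and deficient values of 1928 to 2112, and 0.12 (-0.0085 to 0.25, adjusted p = 0.321) for Slc1a5, with 1629.6 to 1727 and 1734 to 1892. Within the Cox10 line they were -0.07 (-0.24 to 0.10, adjusted p = 0.694) for Slc1a4 and -0.15 (-0.29 to 0.00023, adjusted p = 0.385) for Slc1a5, whose deficient values of 1371, 1561 and 1386 all lay under the controls of 1574, 1639 and 1561, the nearest only narrowly. The Rptor effect minus the Tfam effect was -0.51 ± 0.10 for Slc1a4 (adjusted p = 0.00411) and -0.57 ± 0.09 for Slc1a5 (adjusted p = 0.000872). Against the Cox10 effect the differences were -0.34 and -0.30, with adjusted p of 0.051 and 0.0522. They passed the threshold with the replicate number as a block (adjusted p = 0.0265 for Slc1a4 and 0.0456 for Slc1a5) and without Cox10-deficient replicate 3 (0.0234 and 0.033), but not without Rptor-deficient replicate 1 (0.101 and 0.108). In all they passed in 2 and 3 of the 12 fits without a sample.

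Slc38a2 (ENSMUSG00000022462.7, chr15:96687392-96699730, minus strand) encodes a sodium-coupled importer of alanine, glutamine and other small neutral amino acids. It fell little in the Rptor line, from 9263, 10004 and 9431 in controls to 8094, 8575 and 8516 in deficient lungs. The groups did not overlap, and the log2 fold change was -0.19 ± 0.05 (limma adjusted p = 0.0249). The call was lost without Rptor control replicate 2 (adjusted p = 0.0844) or replicate 3 (adjusted p = 0.0623). Within the Tfam line the values were 10460.3, 9699 and 9235 in controls and 9803, 10013 and 9708 in deficient lungs, a log2 fold change of 0.0081 (95% interval -0.13 to 0.14, adjusted p = 0.965). In the Cox10 line the change was 0.07 (-0.06 to 0.21, adjusted p = 0.598), with controls at 9116 to 9792 and deficient lungs at 9321 to 10435. Groups overlapped in both of these lines. The Rptor effect minus the Cox10 effect was -0.26 ± 0.08 (adjusted p = 0.0541), and its adjusted p was 0.0291 with the replicate block, 0.019 without Cox10-deficient replicate 3 and 0.108 without Rptor-deficient replicate 1. It passed in 2 of the 12 fits without a sample.

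Slc6a9 (ENSMUSG00000028542.17, chr4:117834506-117875198, plus strand) encodes a sodium- and chloride-dependent glycine transporter. In the Tfam line it was at 608, 656 and 612 in controls and 991, 977 and 822 in deficient lungs, a rise of 0.57 ± 0.08 on the log2 scale (limma adjusted p = 0.00302). Within the Rptor line it was at 429, 451 and 429.7 in controls and 459.9, 452 and 415 in deficient lungs. These values overlapped (0.018, 95% interval -0.18 to 0.21, adjusted p = 0.887), and the Rptor and Tfam effects differed by -0.55 ± 0.14 (adjusted p = 0.0154). Within the Cox10 line it was at 628, 529.5 and 544 in controls and 732, 708 and 583 in deficient lungs, and the log2 fold change was 0.25 (-0.0049 to 0.50, adjusted p = 0.39). The genes Ccdc24 and B4galt2 overlap Slc6a9 on the other strand.

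Slc43a1 (ENSMUSG00000027075.16, chr2:84838850-84863594, plus strand) encodes a facilitated transporter of large neutral amino acids, as Slc7a5 does by exchange. It passed the test in none of the 3 lines by limma, also at an unadjusted p below 0.05. Control and deficient values were 850.2 to 903 and 879 to 938 (Rptor line), 944 to 1052 and 995 to 1119.7 (Tfam line), and 825 to 927 and 919 to 933 (Cox10 line). The log2 fold changes were 0.04 (95% interval -0.11 to 0.19), 0.04 (-0.12 to 0.20) and 0.09 (-0.05 to 0.24). In the Rptor line the interval of Slc43a1 did not reach that of Slc7a5 (-0.80 to -0.42), and in the Tfam line it stayed below that of Slc7a5 (0.58 to 0.90); the difference between the genes was not tested.

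Over the 10 members the Rptor and Tfam effects differed for 7 (Slc7a3, Slc7a1, Slc7a5, Slc7a11, Slc1a4, Slc1a5 and Slc6a9), where 11.2% of the 14548 genes tested in all lines differed. The Rptor and Cox10 effects differed for 3 (Slc7a3, Slc7a1 and Slc7a5; 7.49% of genes), and the Tfam and Cox10 effects for 2 (Slc7a3 and Slc7a1; 0.0550% of genes, which is 8 genes). In all 7 of the first comparison the Rptor effect was the lower, and with the replicate block Slc3a2 made them 8. The count of 3 became 6 with the replicate block, where Slc1a4, Slc1a5 and Slc38a2 passed as well, 6 without Cox10-deficient replicate 3 and 5 without Rptor-deficient replicate 2. The count of 2 became 0 with the replicate block, 0 without Tfam control replicate 1 or Tfam-deficient replicate 3, and 1 when any of 8 other samples was left out (Tfam control 3, Tfam-deficient 1 or 2, Cox10 control 1, 2 or 3, Cox10-deficient 1 or 3).

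Levels were then ordered per kb of exon within each group. Slc38a2 was the highest in 5 of 6 groups, at 949.9 ± 29.7 to 1116 ± 63.1 normalised reads per kb. Slc7a5 and Slc3a2 followed and overlapped in the Rptor controls, the Tfam controls and both Cox10 groups. In Tfam-deficient lungs Slc7a5 came first at 1169 ± 49.7, overlapping Slc38a2 at 1114 ± 17.7, with Slc3a2 at 1007 ± 73.5. Slc1a4 and Slc1a5 ranked 4 and 5 in each group (overlapping each other in both Cox10 groups). Slc7a1, Slc43a1 and Slc6a9 took ranks 6 to 8 (Slc7a1 and Slc43a1 overlapped in Tfam controls, and Slc43a1 and Slc6a9 in Tfam-deficient lungs), Slc7a3 rank 9 and Slc7a11 rank 10. In Rptor-deficient lungs Slc7a1 fell below Slc43a1, at 123 ± 3.52 and 158 ± 5.47 per kb. Slc7a3 stayed at rank 9 even in Tfam-deficient lungs, where it reached 102 ± 2.92 per kb from 10.8 ± 1.79 in controls, next to Slc6a9 at 181 ± 18.2.

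**Figure D4:**
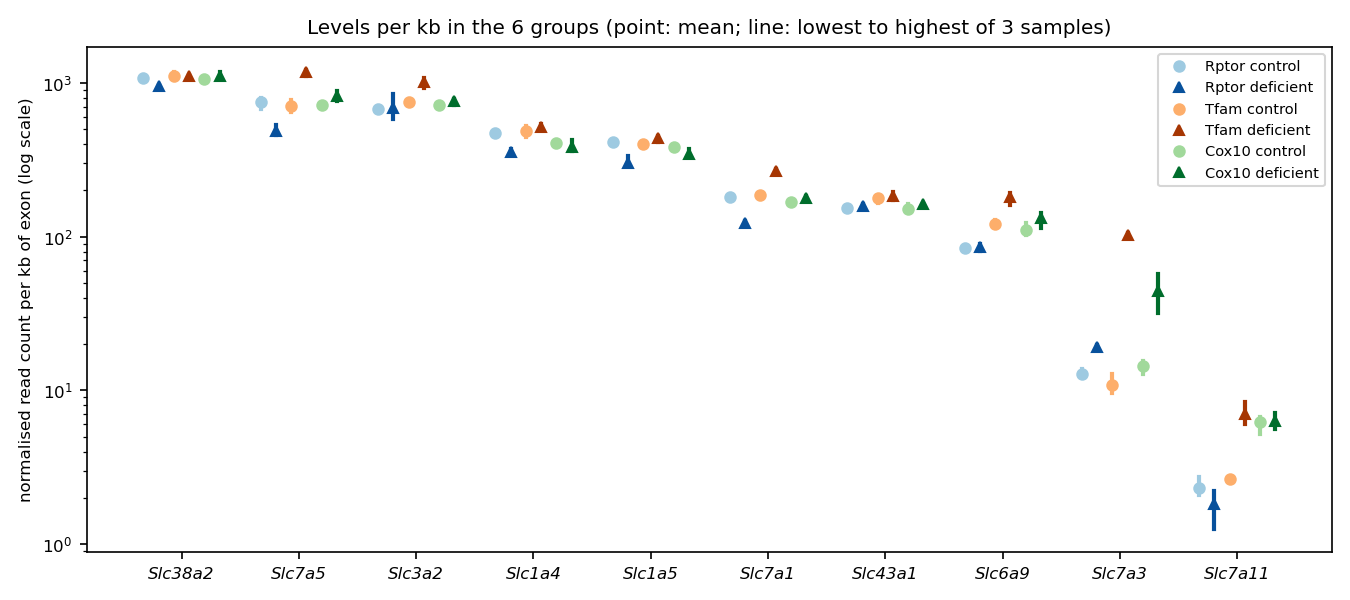
Normalised read count per kb of exon (y axis, log scale) of the 10 transporters, ordered by their level in Rptor controls (x axis), in the 6 groups, with a point for the mean and a line from the lowest to the highest of 3 samples. Slc38a2, Slc7a5 and Slc3a2 are the highest, Slc7a3 rises to 102 per kb in Tfam-deficient lungs, and Slc7a11 is the lowest in every group (1.8 to 7.0 per kb); levels in different lines come from tables scaled separately.

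The genes whose pattern over the 18 samples was most like that of Slc7a3, each sample taken relative to the mean of its line's controls, were Chac1, Aldh1l2, Npy2r, Trib3 and Stc2, with root mean square differences of 0.446, 0.473, 0.513, 0.615 and 0.694 log2 units among 14548 genes. Of the members Slc7a11 was the nearest at 1.09 and Slc1a5 the farthest at 1.52. Chac1, which encodes an enzyme that degrades glutathione, was at 28.01 to 29.5 in Tfam controls and 307 to 347 in deficient lungs. It had log2 fold changes of -0.33 (limma adjusted p = 0.398), 3.47 (adjusted p = 3.31e-07) and 1.87 (adjusted p = 0.0607) in the Rptor, Tfam and Cox10 lines. Aldh1l2, a mitochondrial enzyme of folate metabolism, had 0.40 (adjusted p = 0.028), 2.32 (8.58e-07) and 0.94 (0.0953). Only Slc7a3 and Aldh1l2 among these 6 genes passed the threshold in the Rptor line, and only Slc7a3 and Trib3 in the Cox10 line.

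Genes of the stress response were read beside the transporters. Atf4, the transcription factor itself, fell in the Rptor line (-0.53 ± 0.10, limma adjusted p = 0.00424) and had 0.19 (adjusted p = 0.086) and 0.024 (adjusted p = 0.864) in the Tfam and Cox10 lines, on the level of RNA. Asns, which makes asparagine, fell from 1153 to 1531 in Rptor controls to 757 to 870.5 (-0.75 ± 0.11, adjusted p = 0.00156). It rose from 993 to 1092 in Tfam controls to 2984 to 3149.6 (1.57 ± 0.06, adjusted p = 3.31e-07). Its Cox10 value was 0.60 ± 0.10 (adjusted p = 0.0544). In all, 4 of the 6 listed stress genes rose in Tfam-deficient lungs (Trib3, Chac1, Asns and Sesn2) and none fell by limma (0 lower also before adjustment), 1 rose (Ddit3) and 2 fell (Atf4 and Asns) in Rptor-deficient lungs, and 1 rose in Cox10-deficient lungs (Trib3, 1.24 ± 0.17, adjusted p = 0.0311). Over all genes tested 2.03% rose in the Tfam line, 16.6% rose and 18.2% fell in the Rptor line and 0.141% rose in the Cox10 line. By p before adjustment 6 of the 6 were higher in the Tfam line (8.29% of all genes tested), 5 in the Cox10 line (6.40%), and 1 was higher and 3 lower in the Rptor line (22.3% and 23.4%). All 3 deficient values lay above the controls for 5 of the 6 in the Tfam line (10.9% of all genes) and for 5 in the Cox10 line (10.6%). Without Cox10-deficient replicate 3, 3 rose in the Cox10 line (Asns at an adjusted p of 0.0247 and Chac1 at 0.0471 besides Trib3). In that fit 255 of the 14831 genes tested were called in either direction. Without Rptor-deficient replicate 1 Ddit3 no longer passed in the Rptor line (0.0864). Their part in the transporters' changes was not tested.

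Other amino acid transporters of the plasma membrane were counted in the same way. Of 31 further genes, 23 were tested in the Rptor and Tfam lines and 22 in the Cox10 line. In Rptor-deficient lungs 9 of the 23 rose and 3 fell (16.6% and 18.2% of all genes tested), with a median log2 fold change of 0.21. The largest changes were those of Slc36a2 (1.76 ± 0.26, limma adjusted p = 0.00164), a carrier of glycine and proline with values of 11.96 ± 0.98 and 43.9 ± 11.6, Slc6a14 (-1.48 ± 0.46, adjusted p = 0.0369), a broad sodium-coupled importer whose groups overlapped, Slc7a9 (1.34 ± 0.27, adjusted p = 0.00653), a light chain for cystine, and Slc7a10 (1.12 ± 0.15, adjusted p = 0.000955), a light chain for small neutral amino acids. The other 2 that fell, named after their values were seen, were Slc38a1 (-0.46 ± 0.06, adjusted p = 0.000746) and Slc7a6 (-0.42 ± 0.06, adjusted p = 0.00167). Within the Slc38 family, to which Slc38a2 belongs, directions differed: Slc38a5, also named after its values were seen, rose (0.89 ± 0.07, adjusted p = 9.2e-05). In Tfam-deficient lungs 2 of the 23 rose (2.03% of all genes), the glutamate transporters Slc1a6 (0.73 ± 0.14, adjusted p = 0.0138) and Slc1a3 (0.33 ± 0.07, adjusted p = 0.022). None fell by limma (2.63% of all genes). By the p before adjustment 4 were higher and 3 lower (8.29% and 9.10% of all genes tested). In Cox10-deficient lungs none of the 22 passed the threshold by limma. There 4 were higher and 1 lower by the p before adjustment (6.40% and 6.62% of all genes tested). Slc6a14 no longer passed without Rptor-deficient replicate 1 (-1.01, adjusted p = 0.0613), and Slc1a3 passed in the Cox10 line without Cox10-deficient replicate 3 (0.31, adjusted p = 0.0419). The epithelial and other marker lists moved in the Rptor line as given above, and their part in these changes was not tested.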

How the data were processed

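RNA-seq of 18 whole-lung samples at 14.5 dpc was used, 3 control and 3 deficient in each of 3 lines, grouped by their titles. Per the submitters' processing notes, Trim Galore, HISAT2, featureCounts and DESeq2 were named with the mm10 build. The authors deposited, in a table for each line, a normalised signal (reads of a gene, scaled by a single factor per library). All values were whole multiples of a step of 0.978 to 1.02 per sample (tolerance 0.01). The check applied here did not accept these multiples as recovered reads, because the steps lie close to 1. No count test was run for that reason, although division by the step gives whole numbers. The deposited log2 fold changes, p-values and adjusted p-values of the authors' own comparisons were not used. From every table, 4 rows with ambiguous symbols were left out.

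Values were analysed as log2(value + 1), which understates the change of low genes. Genes with at least 10 in at least 3 of 6 samples were fitted by line with limma 3.58.1 (R 4.3.3; lmFit, then eBayes with a trend), two-sided, with Benjamini-Hochberg adjustment over all genes tested and a threshold of 0.05. Differences between effects were contrasts in a fit of all 18 samples over the genes tested in every line. Errors beside fold changes are SE, and beside levels SD. Levels per kb used the exon union of GENCODE vM21 (GRCm38, as mm10). Whether each sample was a separate embryo is not given in the sources used here, and p-values measure the spread between these samples. In the Rptor line same-numbered samples deviated together (correlations 0.221, 0.33 and 0.259), a hint from the data that the numbers pair samples there. The reported tests have no block, and the replicate number as a block was an alternative. The members, gene lists and motif were chosen with earlier results of these data known. Named genes were all 10 members, the 4 largest changes past the threshold among other transporters in each line, 5 genes most like Slc7a3, 6 stress genes and the targeted genes. Scripts were tested on simulated data.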

Additional observations from a re-analysis of the deposited data

Results flagged for a closer look

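The difference between the effects of the deletions in 2 lines passed the test in 12 cases (limma contrast, adjusted p below 0.05). Between the Rptor and Tfam lines the log2 differences were -2.65 for Slc7a3, -1.09 for Slc7a1, -1.35 for Slc7a5, -1.71 for Slc7a11, -0.513 for Slc1a4, -0.571 for Slc1a5 and -0.55 for Slc6a9. Between the Rptor and Cox10 lines they were -0.994 for Slc7a3, -0.642 for Slc7a1 and -0.804 for Slc7a5. Between the Tfam and Cox10 lines they were 1.66 for Slc7a3 and 0.448 for Slc7a1. All lines shared the ShhCre/+ background and none of the 3 comparisons is independent of the others, since each line enters 2 of them.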

How the results depend on the processing

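Alternatives were scaling to sample totals, the trimmed mean of M-values, no filter, a mean of at least 50, pseudocounts of 0.1 and 10, the replicate block, Xist as a covariate, all 18 samples in a single fit and leaving out each sample. With all samples kept, 265 of 269 fold changes of members kept their direction and side of the threshold (3 reversed, 1 no longer passed) and 222 of 237 differences of effects did (12 newly passed, 3 no longer). Without a sample, 157 of 180 fold changes did (10 reversed, 12 no longer passed, 1 newly passed) and 334 of 360 differences (6 reversed, 12 no longer passed, 8 newly passed). The planned edgeR and DESeq2 fits were not run, because the check applied here did not accept whole reads as recovered from steps close to 1. The median of all genes moved by less than 0.1 under each scaling. Over all genes, the 702 called in the Tfam line became 399 with all 18 samples in a single fit and 354 to 1113 without a sample (lowest without Tfam-deficient replicate 3, highest without Tfam control replicate 3), and the 71 in the Cox10 line became 327 in that fit, 117 with Xist and 3 to 255 without a sample. Among members called in a line, the fall of 5 in the Rptor line was 4 or 5 without a sample, the rise of 6 in the Tfam line stayed at 6, and the rise of 1 in the Rptor line became 0 without any of its 6 samples. The rise of 1 in the Cox10 line was 0 to 2 without a sample. The effects that differed between the Rptor and Tfam lines numbered 7 or 8 without a sample, those between the Rptor and Cox10 lines 3 to 6 and those between the Tfam and Cox10 lines 0 to 2.

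With the replicate block the Cox10 count of members that rose became 0 (Slc7a3, adjusted p = 0.0566), the members that differed between the Rptor and Cox10 lines became 6 and those between the Tfam and Cox10 lines became 0 (Slc7a3 and Slc7a1, adjusted p = 0.0668 and 0.116). It changed no call in the Rptor and Tfam lines. Same-numbered samples correlated at -0.312, -0.207 and 0.151 in the Tfam line, which gives no hint of pairing. In the Cox10 line they correlated at 0.447, 0.202 and 0.0487. All of these were positive, but only control replicate 1 had its own number as best partner. Whether the numbers pair samples in the Cox10 line cannot be told from these values. The Rptor and Cox10 count was 6 with the trimmed mean of M-values and 5 with a mean of at least 50. With Xist as a covariate the Tfam and Cox10 count became 1 (Slc7a1, adjusted p = 0.0531). Between the Rptor and Tfam effects Slc3a2 passed the threshold in 4 of 8 settings (adjusted p down to 0.018).

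Values near 0 changed sign. Scaled to totals, the log2 fold change of Slc3a2 in the Rptor line was 0.0082, and with Xist that of Slc6a9 in the Rptor line was -0.012 and that of Slc38a2 in the Tfam line -0.0020. Over the fits that left out a sample, the log2 fold change was -0.17 to 0.11 for Slc3a2 and -0.011 to 0.063 for Slc6a9 in the Rptor line, -0.034 to 0.056 for Slc38a2 and -0.010 to 0.075 for Slc43a1 in the Tfam line, and -0.089 to 0.105 for Slc7a11 in the Cox10 line. The Rptor minus Tfam difference of Slc43a1 was -0.037 to 0.048 and the Rptor minus Cox10 difference of Slc3a2 -0.26 to 0.015. The cause was not tested. Slc7a11, at 17.3 to 116 normalised reads, and Slc7a3, at 36.6 to 399, rest on the fewest reads of the 10. The markers, stress genes and other transporters without the samples that stand apart were alternatives chosen after seeing the data.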
